A study of Mus musculus with 12 samples.

Results

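The 42 genes described here encode adaptors, kinases and other signalling parts of the Toll-like receptor (TLR) pathway, and they were followed across bone marrow-derived macrophages of mice. They were listed by name and role: co-receptors and trafficking factors, adaptors, dampers, IRAK kinases, TRAF and TAK1 proteins, the IKK family, and the MAP kinase cascade. A gene was read from the row of the array table whose platform symbol is exactly that name. Of the 42 genes listed, 36 had such a row, 1 each, among 22180 genes with 1 symbol. Irak4, Traf3, Ripk1, Chuk, Map2k7 and Mapk3 are not analysed here. A filter on dim rows kept 33 of the 36, among 14079 genes tested in all. Sarm1, Sigirr and Map2k6 did not pass it.

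The study compared 4 groups of 3 arrays: knockout cells with R848, knockout cells with saline, wild-type cells with R848 and wild-type cells with saline. The knockout mice are labelled Rasgef1b_fl/fl_vav-icre: a floxed Rasgef1b gene, which encodes an exchange factor for Ras-family GTPases, is combined with Cre driven by Vav, a promoter active in blood-forming cells. The labels name no group with Cre alone, and the sources used here do not give strain, sex or age of the mice. R848, a small synthetic agonist of TLR7, was given for 4 h, and the labels give no time for saline. All cells were grown in medium conditioned by L929 cells, a fibroblast line that secretes the macrophage growth factor M-CSF. The labels do not say whether the 3 arrays of a group came from separate mice, so p-values measure only the spread between these arrays.

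R848 is sensed in endosomes by TLR7, which signals through the adaptor MyD88. MyD88 gathers IRAK kinases, these engage the ubiquitin ligase TRAF6, and TRAF6 activates the kinase TAK1 with its TAB partners. TAK1 then switches on the IKK complex, which releases NF-kB, and the MAP kinase modules that end in ERK, JNK and p38. A second branch through the adaptor TRIF and the kinases TBK1 and IKK-epsilon leads to interferon and is used by TLR3 and TLR4. In macrophages the pathway drives cytokine production, and several of its parts are themselves encoded by genes that answer to it.

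Values are log2 intensities, so a change of 1 is a doubling, and a gene was called at a limma adjusted p under 0.05 over all 14079 tested genes. The macrophage markers Adgre1, Csf1r, Cd68, Itgam, Mertk and Fcgr1 averaged 10.09 to 10.16 per array in knockout cells with R848, against 10.44 to 10.61 with saline. In wild-type cells they averaged 10.02 to 10.08 with R848, against 10.39 to 10.42 with saline. Of these 6 markers, 1 rose and 4 fell with R848 in knockout, where 15.6% of all tested genes rose and 26.0% fell. In wild type 1 rose and 3 fell, where 14.6% of all tested genes rose and 23.6% fell. Most of the fall in the list mean came from Mertk, a receptor for the uptake of dying cells, which averaged 5.51 ± 0.13 with R848 against 7.43 ± 0.34 with saline in knockout, and 5.39 ± 0.18 against 7.18 ± 0.11 in wild type (SD, n = 3 each). The other 5 markers changed by -0.45 (Csf1r in knockout) to 0.32 (Adgre1 in wild type). The part of these changes in the members' results was not tested. Lists for B cells (2 of 3 markers with a row) and T cells (3 of 3) had 0 markers above the dim limit, which lay between 4.31 and 4.35. Lists for neutrophils (2 of 4), dendritic cells (2 of 3) and fibroblasts (2 of 3) had members above it, with list means between 3.89 and 4.65 in every array. The brightest were Col1a1 of the fibroblast list, at 5.14 to 5.51, and S100a9 of the neutrophil list, at 4.52 to 5.28. S100a9 read 5.24, 5.06 and 5.28 in knockout with R848, against 4.85, 4.88 and 4.88 with saline, a rise of 0.32 (limma adjusted p = 0.0119). In wild type it read 4.74, 4.91 and 4.52 with R848, against 4.69, 4.79 and 4.77 with saline. It was 0.29 higher in knockout averaged over treatments (limma adjusted p = 0.0375). Its genotype difference with R848 (0.47) and the difference between its R848 changes in knockout and wild type (0.35) were not called. Elane, another neutrophil gene, fell in knockout with R848, at -0.20 (0.033). Ly6g and S100a8 did not pass the filter. The part of these markers in the members' results was not tested.

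Rasgef1b itself read 9.45, 8.60 and 9.36 in knockout cells with R848, against 9.84, 9.84 and 9.69 in wild-type cells with R848. With saline it read 8.63, 7.88 and 8.72 in knockout cells, against 9.03, 9.19 and 9.14 in wild-type cells. Every knockout array lay below every wild-type array of the same treatment, and the averaged difference was -0.68 ± 0.151 (SE, limma adjusted p = 0.036). Within a treatment the difference was -0.65 with R848 (adjusted p = 0.333) and -0.71 with saline (0.158), neither called. Signal remained in the knockout, and which exons were removed is not given in the sources used here. Cells were measured in bulk, so fewer cells of a type and less RNA per cell cannot be told apart.

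Promoter stretches of 3 raised members are shown because they hold letters of sites for factors that this pathway activates. Each runs 5′ to 3′ on the strand of its gene, from 149 bases before the start site to the start base, taken from RefSeq on GRCm38.p6. Capitals mark matches to the NF-kB consensus, to the AP-1 motif TGANTCA or to an interferon-response core, GAAA followed after any 2 bases by GAAA. The stretches are Ikbke at chr1:131279563-131279712 (minus strand), Tank at chr2:61592948-61593097 (plus strand, 1 of its listed starts) and Myd88 at chr9:119340018-119340167 (minus strand).
Ikbke: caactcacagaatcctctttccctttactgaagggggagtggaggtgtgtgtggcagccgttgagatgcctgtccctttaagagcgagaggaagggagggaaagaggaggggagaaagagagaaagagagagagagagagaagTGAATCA
Tank: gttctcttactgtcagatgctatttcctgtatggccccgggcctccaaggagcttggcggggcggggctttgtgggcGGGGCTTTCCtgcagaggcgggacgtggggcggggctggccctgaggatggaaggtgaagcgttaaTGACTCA
Myd88: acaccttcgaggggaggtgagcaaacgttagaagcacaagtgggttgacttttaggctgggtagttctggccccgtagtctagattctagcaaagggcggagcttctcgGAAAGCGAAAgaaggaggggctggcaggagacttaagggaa
In Ikbke the AP-1 letters end on the start base itself. Tank holds an NF-kB match 72 bases before its start and AP-1 letters that also end on the start base. Myd88 holds the interferon-response letters 40 bases before its start.

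Whole windows from 250 bases before to 50 after the start were searched on both strands for 27 of the 36 members, in 41 windows that partly overlap where a gene has several starts. Members are grouped here by their R848 change averaged over genotypes. Of the 8 raised at least 2-fold, 5 had a window. AP-1 letters stood in windows of 2 of these 5 genes (Ikbke and Tank), where 8.97% of all 27025 genes with a window hold them, and the NF-kB consensus in 1 of them (Tank), where 5.14% of all genes do. Counted by window, in which Tank has several, AP-1 letters stood in 3 of 8, against 7.81% of all 32851 windows, and the NF-kB consensus in 2 of 8, against 4.51%. Among 10 less strongly raised genes with a window, 0 held AP-1 or NF-kB letters and 1, Myd88, held the interferon-response core, which 3.99% of all genes and 3.44% of all windows hold. Among 5 lowered genes, Mapk14 held the interferon-response core and 0 held the first 2 motifs. Of the 5 uncalled genes, Map3k7 held the NF-kB consensus and Ikbkg AP-1 letters. TGACGTCA, the cyclic AMP response element, stood in 0 windows of the tested members, in windows of 2.03% of all genes and in 1.79% of all windows. CCAAT stood in windows of 1 of the 5, 3 of the 10, 3 of the 5 lowered and 2 of the 5 uncalled genes, where 41.1% of all genes and 37.4% of all windows hold it. A match is a description of letters, and no binding was measured.

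R848 moved most of these genes, and it moved them mainly upwards. In knockout cells 20 of 33 tested members rose and 5 fell, where 15.6% of all tested genes rose and 26.0% fell. In wild-type cells 20 rose and 5 fell as well, where 14.6% of all tested genes rose and 23.6% fell. The 20 raised genes were the same in both genotypes, and 4 of the 5 lowered genes were shared, 80% of each list. The median change over the members was 0.39 in knockout and 0.44 in wild type, against -0.03 and -0.02 over all tested genes. The 8 members raised at least 2-fold were also the same in both genotypes, where 3.86% of all tested genes in knockout and 3.83% in wild type rose that much. They were Ikbke, Irak2, Map3k8, Mapkapk2, Traf2, Slc15a3, Ticam2 and Tank, and 0 members fell 2-fold, where 3.86% of all tested genes in knockout and 3.39% in wild type did.

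**Figure D1:**
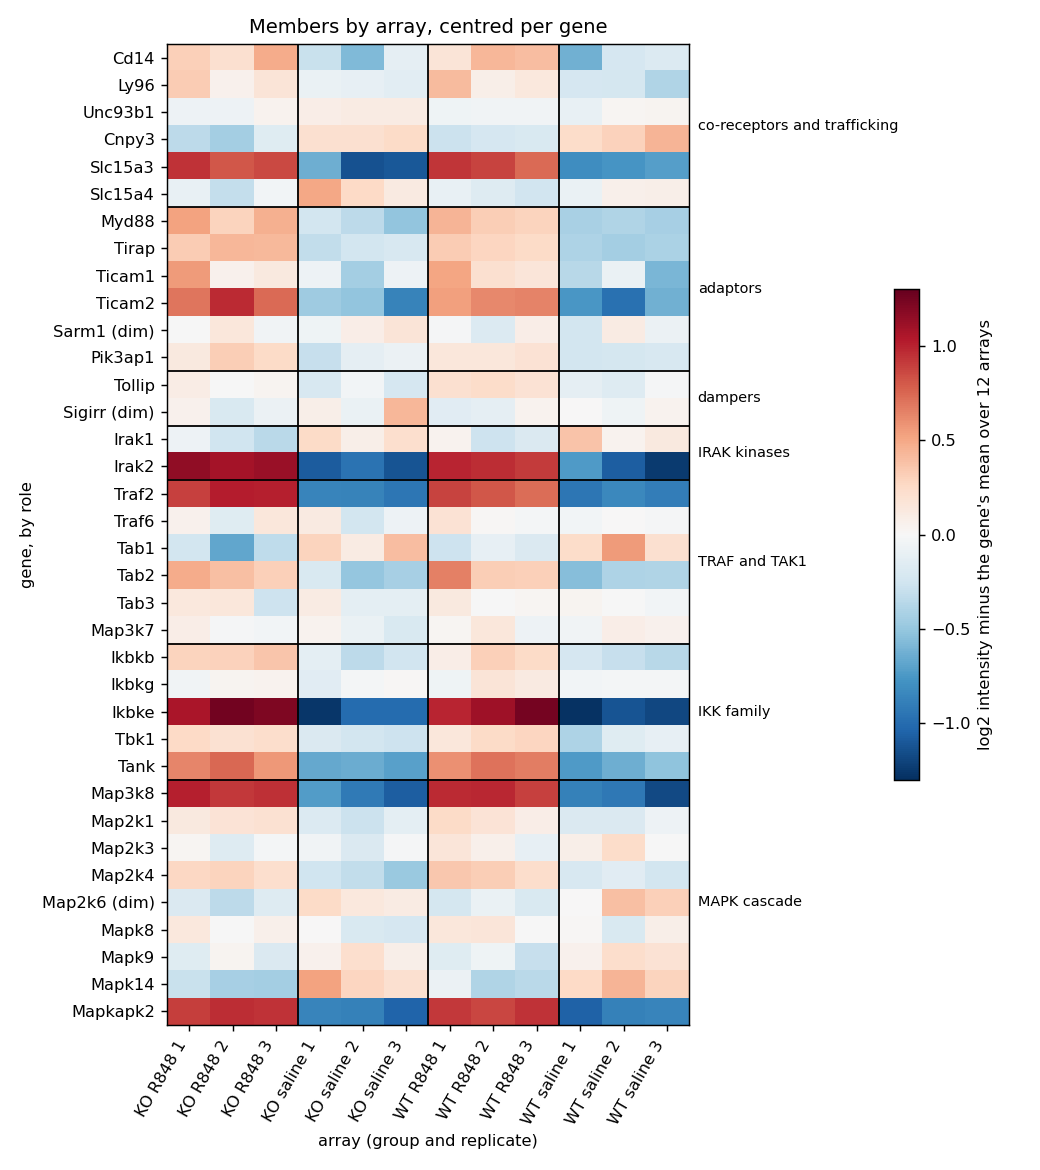
Each row is a member with a row on the array, grouped by role, and each column is an array. Colour gives the log2 intensity minus that gene's mean over the 12 arrays. Ikbke, Irak2, Map3k8, Mapkapk2, Traf2 and Slc15a3 are red on all 6 R848 arrays and blue on all 6 saline arrays. Dim marks the 3 members that did not pass the filter.

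The calls of smaller changes depended in part on the scaling. With each array centred on the median of the tested genes, the median change of all tested genes moved by over 0.1, to 0.12 in knockout and 0.11 in wild type, and the share of higher genes among all calls went to 63.6% in knockout, against 37.4% as deposited. In wild type that share was 62.2% after centring and 38.3% as deposited. Among the members this scaling gave 23 higher and 4 lower in knockout, and 22 higher and 3 lower in wild type. The members added as higher were Ikbkg and Mapk8 in both genotypes, and Map3k7 in knockout. Those no longer lower were Irak1 in both, and Mapk9 in wild type. The 8 members raised at least 2-fold changed by far more than this shift.

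Among co-receptors and trafficking factors, Slc15a3 stood out. It encodes a proton-coupled transporter of histidine and small peptides in endolysosomes. It read 9.48, 9.35 and 9.40 in knockout cells with R848, against 7.91, 7.41 and 7.44 with saline. The wild-type arrays read 9.47, 9.42 and 9.28 with R848, against 7.74, 7.78 and 7.83 with saline. No R848 array overlapped a saline array in either genotype. The rise was 1.82 ± 0.112 in knockout (SE, limma adjusted p = 5.33e-09) and 1.61 ± 0.112 in wild type (2.49e-08).

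Its relative Slc15a4, an endolysosomal transporter needed for TLR7 and TLR9 responses, went the other way. It averaged 8.70 ± 0.15 with R848 against 9.14 ± 0.20 with saline in knockout cells, a fall (limma adjusted p = 0.00295). The wild-type mean was 8.67 ± 0.08 with R848 and 8.86 ± 0.09 with saline (SD, n = 3 each), a change of -0.19 that was not called (adjusted p = 0.175). The difference between these 2 changes was not called either, as given below.

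Cd14, the co-receptor that hands lipopolysaccharide to TLR4, rose by 0.66 in knockout (limma adjusted p = 0.00108) and by 0.67 in wild type (adjusted p = 0.000998). It averaged 11.51 ± 0.14 with R848 against 10.85 ± 0.23 with saline in knockout cells, and 11.51 ± 0.15 against 10.84 ± 0.25 in wild-type cells. Ly96, which binds lipopolysaccharide together with TLR4, rose by 0.30 in knockout and by 0.49 in wild type. The knockout call of Ly96 (adjusted p = 0.0219) was lost without knockout saline replicate 2 (0.0519) or 3 (0.0597) and without knockout R848 replicate 1 (0.102).

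Of the chaperones of TLRs, Cnpy3, which helps the receptors fold in the endoplasmic reticulum, fell. It averaged 6.41 ± 0.14 with R848 against 6.94 ± 0.02 with saline in knockout cells, a change of -0.54 (limma adjusted p = 8.19e-05). The wild-type mean was 6.49 ± 0.04 against 7.05 ± 0.10, a change of -0.56 (adjusted p = 5.95e-05). Unc93b1, which escorts the nucleic acid-sensing TLRs to endosomes, changed by -0.13 in knockout and -0.04 in wild type and was not called in either (adjusted p = 0.154 and 0.727). Its 95% intervals were -0.27 to 0.02 in knockout and -0.18 to 0.11 in wild type.

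All 5 tested adaptors rose in both genotypes. Ticam2 encodes TRAM, which links TRIF to TLR4, and it moved most. It read 8.12, 8.40 and 8.16 in knockout cells with R848, against 6.97, 6.92 and 6.56 with saline. In wild type it read 7.96, 8.05 and 8.07 with R848, against 6.67, 6.46 and 6.80 with saline. The groups did not overlap, and the rise was 1.41 ± 0.117 in knockout (SE, limma adjusted p = 1.46e-07) and 1.38 ± 0.117 in wild type (2.02e-07).

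Myd88, the adaptor of TLR7 itself, rose by 0.79 in knockout (limma adjusted p = 2.98e-06) and 0.77 in wild type (4.11e-06). Tirap, which brings MyD88 to TLR2 and TLR4, rose by 0.65 and 0.70. Pik3ap1, also called BCAP, which connects TLRs to phosphoinositide 3-kinase, rose by 0.39 in each genotype. Ticam1, which encodes TRIF, rose by 0.44 in knockout (adjusted p = 0.0326) and by 0.64 in wild type (0.00377). Its knockout call was lost without knockout saline replicate 2 (0.151) or knockout R848 replicate 1 (0.161). Sarm1, a TIR-domain protein that cleaves NAD, lay under the dim limit on all 12 arrays, between 3.79 and 4.20.

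Of the dampers among the members, only Tollip was tested. Irak3, an inhibitor of the pathway outside the members, rose and is given below with the other pathway list. Tollip, which binds IRAK1 and restrains the pathway, averaged 6.97 ± 0.05 with R848 and 6.76 ± 0.10 with saline in knockout cells, and 7.13 ± 0.03 and 6.82 ± 0.08 in wild-type cells. It rose by 0.20 in knockout (limma adjusted p = 0.0388) and by 0.32 in wild type (adjusted p = 0.00303). The knockout call ended with any of 6 arrays left out, which were knockout R848 replicates 1 (0.119) and 3 (0.0736), knockout saline replicates 1 (0.117) and 3 (0.123), and wild-type R848 replicates 2 (0.0509) and 3 (0.0502). It also ended with median centring over all rows (0.109), array weights (0.0707) and a fit of only the arrays compared (0.0841). Sigirr, an inhibitory receptor of the interleukin 1 family, passed the dim limit on 1 of 12 arrays and read between 4.02 and 4.64.

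The IRAK kinases parted. Irak2, which sustains signalling after the first contact of MyD88 with the kinases, read 9.45, 9.38 and 9.42 in knockout cells with R848, against 7.21, 7.33 and 7.17 with saline. Wild-type cells gave 9.28, 9.25 and 9.20 with R848, against 7.56, 7.22 and 7.05 with saline. Every R848 array lay far above every saline array. The rise was 2.18 ± 0.104 in knockout (SE, limma adjusted p = 3.45e-10) and 1.97 ± 0.104 in wild type (1.21e-09).

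Irak1, which acts upstream of TRAF6, fell. It averaged 7.09 ± 0.14 with R848 against 7.50 ± 0.10 with saline in knockout cells (limma adjusted p = 0.00673). The wild-type mean was 7.18 ± 0.16 against 7.50 ± 0.17 (adjusted p = 0.0306), and there the groups touched, at 7.36. The wild-type call was lost without wild-type R848 replicate 2 (0.132) or 3 (0.0939) and without wild-type saline replicate 1 (0.144). Cyclic loess also ended that call, at -0.275 (limma adjusted p = 0.068). After centring on the tested genes the change was -0.26 in knockout (0.0574) and -0.19 in wild type (0.174).

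**Figure D2:**
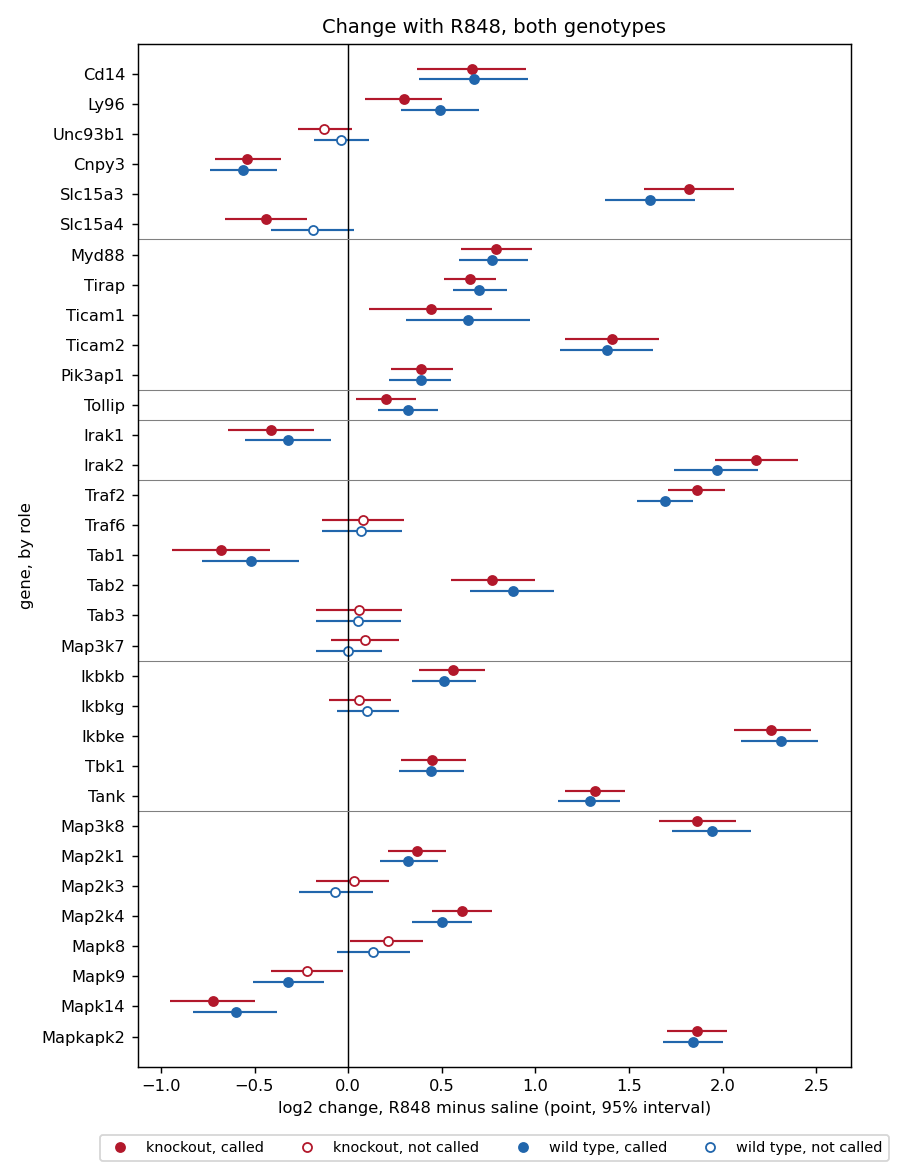
Points give the log2 change with R848 (R848 minus saline) of the 33 tested members in knockout (red) and wild-type (blue) cells, with 95% intervals, and filled points passed the limma adjusted p of 0.05. Genes are grouped by role in the order of the text. Ikbke is farthest right, at 2.26 in knockout and 2.31 in wild type, and Mapk14 farthest left, at -0.72 and -0.60.

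TRAF and TAK1 genes were uneven. Traf2, the adaptor of tumour necrosis factor receptors, read 8.08, 8.22 and 8.21 in knockout cells with R848, against 6.34, 6.33 and 6.26 with saline. Its wild-type values were 8.07, 8.0 and 7.92 with R848, against 6.26, 6.36 and 6.30 with saline. The spread within each group was small beside the rise of 1.86 ± 0.072 in knockout (SE, limma adjusted p = 3.1e-11) and 1.69 ± 0.072 in wild type (9.67e-11).

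Traf6, the ubiquitin ligase that relays the IRAK signal, changed by 0.08 in knockout and 0.07 in wild type and was not called. Map3k7, which encodes TAK1, changed by 0.09 and 0.00, with 95% intervals of -0.09 to 0.27 and -0.17 to 0.18. The intervals of Traf6 were -0.14 to 0.30 and -0.14 to 0.29. After centring on the tested genes Map3k7 passed in knockout, at 0.23 (limma adjusted p = 0.0234).

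The TAK1-binding partners differed among themselves. Tab2, which docks TAK1 on ubiquitin chains, averaged 9.97 ± 0.09 with R848 against 9.20 ± 0.16 with saline in knockout cells. The wild-type mean was 10.01 ± 0.19 against 9.13 ± 0.10. It rose by 0.77 (limma adjusted p = 2.73e-05) and 0.88 (8.47e-06). Tab1, which promotes TAK1 activity directly, fell by 0.68 in knockout (adjusted p = 0.000312) and by 0.52 in wild type (0.00284). Tab3, a relative of Tab2, changed by 0.06 and 0.05 and was not called.

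Among the tested genes of the IKK family the largest changes belonged to Ikbke and Tank. Ikbke encodes IKK-epsilon, a kinase of the interferon branch that is itself inducible. It read 10.01, 10.20 and 10.16 in knockout cells with R848, against 7.68, 7.95 and 7.95 with saline. The wild-type arrays read 9.94, 10.05 and 10.19 with R848, against 7.66, 7.83 and 7.77 with saline. The groups were more than 1 log2 unit apart. The rise of 2.26 ± 0.095 in knockout (SE, limma adjusted p = 7.71e-11) and 2.31 ± 0.095 in wild type (6.98e-11) was the largest among the members, 4.80-fold and 4.95-fold. Averaged over genotypes, its rise ranked 136 among the 14079 tested genes.

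Tank, a scaffold that binds TBK1 and IKK-epsilon, read 8.18, 8.29 and 8.11 in knockout cells with R848, against 6.88, 6.90 and 6.84 with saline. In wild type it read 8.14, 8.25 and 8.21 with R848, against 6.81, 6.91 and 7.02 with saline. It rose in both, by 1.32 ± 0.076 (SE, limma adjusted p = 2.78e-09) and 1.29 ± 0.076 (4.07e-09). Tbk1, the constitutive relative of Ikbke, rose by 0.45 in knockout and 0.44 in wild type (adjusted p = 0.00038 and 0.000497).

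Of the classical complex, the kinase subunit gene Ikbkb rose by 0.56 in knockout and 0.51 in wild type (limma adjusted p = 4.88e-05 and 0.00012). Ikbkg, which encodes the regulatory subunit NEMO, changed by 0.06 and 0.10 and was not called. After centring on the tested genes Ikbkg passed as higher, at 0.21 in knockout (adjusted p = 0.0439) and 0.23 in wild type (0.0284).

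**Figure D3:**
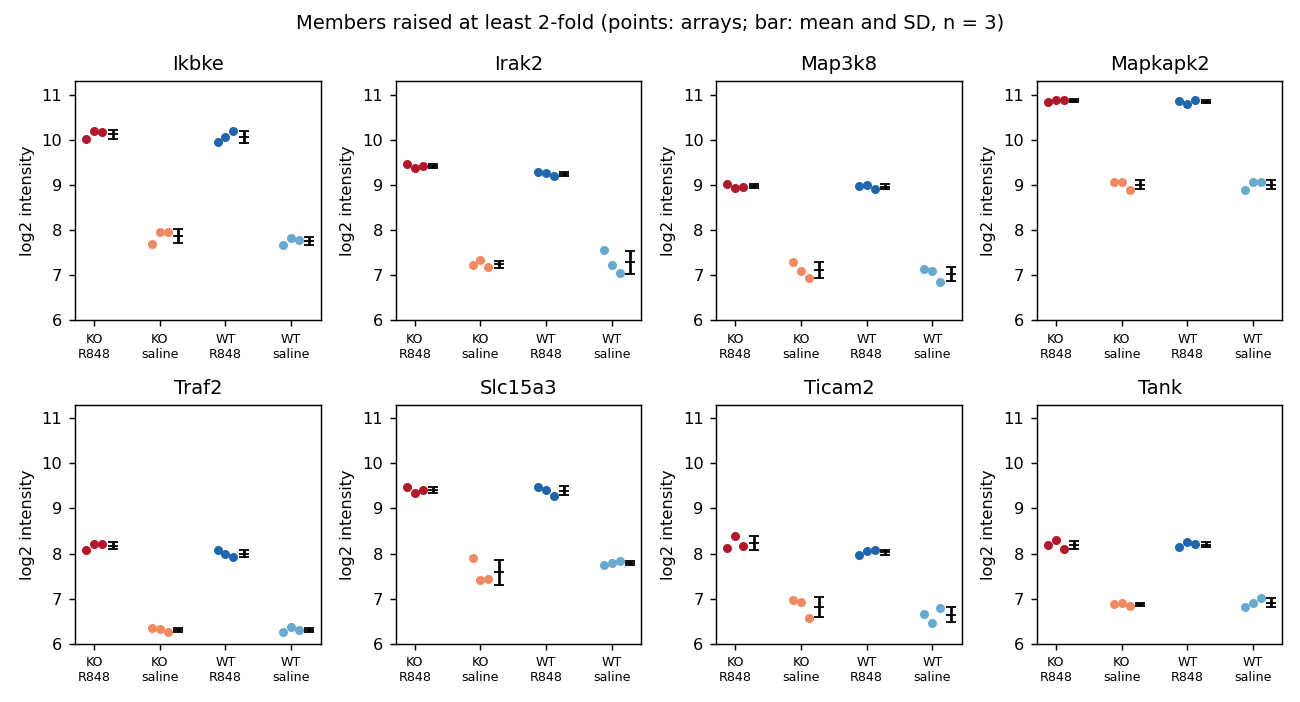
Each panel shows 1 of the 8 members raised at least 2-fold, as log2 intensity by group (KO for knockout, WT for wild type). Points are arrays and the bar gives mean and SD of 3. In every panel both R848 groups lie above both saline groups, with Ikbke at 9.94 to 10.20 with R848 and 7.66 to 7.95 with saline.

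Of the tested members of the MAP kinase cascade, Map3k8 and Mapkapk2 rose most. Map3k8, also called TPL2, is the kinase that couples TLRs to MEK and ERK. It read 9.02, 8.93 and 8.96 in knockout cells with R848, against 7.29, 7.09 and 6.94 with saline. Wild-type cells gave 8.98, 8.99 and 8.90 with R848, against 7.13, 7.08 and 6.84 with saline. All R848 arrays lay above all saline arrays. The rise was 1.86 ± 0.096 in knockout (SE, limma adjusted p = 7.63e-10) and 1.94 ± 0.096 in wild type (5.3e-10).

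Mapkapk2, the p38-activated kinase that stabilizes cytokine mRNAs, read 10.83, 10.89 and 10.87 in knockout cells with R848, against 9.07, 9.05 and 8.89 with saline. Its wild-type values were 10.85, 10.80 and 10.87 with R848, against 8.88, 9.05 and 9.07 with saline. The 2 genotypes were close to each other in each treatment. It rose by 1.86 ± 0.076 in knockout (SE, limma adjusted p = 5.95e-11) and 1.84 ± 0.076 in wild type (7.18e-11).

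Its upstream kinase gene fell. Mapk14, which encodes p38-alpha, read 7.35, 7.20 and 7.19 in knockout cells with R848, against 8.16, 7.91 and 7.84 with saline. The wild-type arrays read 7.56, 7.24 and 7.28 with R848, against 7.89, 8.08 and 7.92 with saline. The groups did not overlap, and the change was -0.72 ± 0.104 in knockout (SE, limma adjusted p = 4.66e-05) and -0.60 ± 0.104 in wild type (0.000274). These were the largest falls among the members.

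Of the Map2k genes, Map2k4, which activates JNK and p38, rose by 0.61 in knockout and 0.50 in wild type (limma adjusted p = 9.01e-06 and 7.68e-05). Map2k1, which encodes MEK1 of the ERK module, rose by 0.37 and 0.32 (0.000862 and 0.00247). Map2k3, an activator of p38, changed by 0.03 and -0.07 and was not called. Map2k6, its relative, lay under the dim limit on all 12 arrays, at 3.58 to 3.75 with R848 and 4.02 to 4.16 with saline in knockout cells, and 3.69 to 3.83 and 3.92 to 4.31 in wild-type cells. In a fit without the filter, Map2k6 was lower with R848, at -0.39 in knockout (adjusted p = 0.00569) and -0.41 in wild type (0.00464).

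The JNK genes Mapk8 and Mapk9 showed small differences. Mapk9 changed by -0.22 in knockout (limma adjusted p = 0.0642), which was not called, and was lower in wild type, at -0.32 (0.00875). Without wild-type R848 replicate 3 the wild-type value was -0.26 (0.0512), and with the replicate number as a block the knockout value passed (0.025). The knockout value also passed without knockout R848 replicate 2 (0.0262), with median centring over all rows (0.0399) and with array weights (0.0434). Without wild-type R848 replicate 3 the members lower in wild type numbered 3, with Irak1 and Mapk9 no longer called, against 5 with all arrays. Mapk8 changed by 0.21 in knockout and 0.13 in wild type, neither called. After centring on the tested genes Mapk8 passed, at 0.35 in knockout (limma adjusted p = 0.00541) and 0.26 in wild type (0.0286). In knockout it also passed without knockout saline replicate 1 (0.0348) and with cyclic loess (0.0241).

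Averaged over genotypes, 21 members rose and 6 fell, where 19.3% of all tested genes rose and 30.7% fell. The raised gene added there was Mapk8, at 0.17 ± 0.065 (SE, limma adjusted p = 0.0423). That call was lost when any of these arrays was left out: knockout R848 replicates 1 (0.091) and 3 (0.0672), knockout saline replicates 2 (0.0922) and 3 (0.0942), wild-type R848 replicates 1 (0.085) and 2 (0.0941), and wild-type saline replicate 2 (0.118). It was also lost with no filter on dim rows (0.0534) and with median centring over all rows (0.0838).

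Related genes within the pathway were compared for their response to R848. Of 11 pairs of relatives listed, 6 had both genes tested. For each, the difference between the 2 genes was taken within an array, and R848 and saline arrays were compared by an exact two-sided permutation test over 400 relabellings within genotype. Levels of different genes were not compared, only their changes. All 6 pairs reached an exact permutation p = 0.005, the smallest these relabellings can give, and 0.005 after Benjamini-Hochberg adjustment over the 6. A pair reaches this p whenever its R848 arrays lie on the same side of its saline arrays in both genotypes. These tests were chosen with earlier results of these data known. How many unrelated gene pairs would reach the same p was not counted, so the 6 p-values only describe these pairs.

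The change of Irak2 exceeded that of Irak1 by 2.44, that of Slc15a3 exceeded that of Slc15a4 by 2.03, and that of Ikbke exceeded that of Tbk1 by 1.84. The change of Tab2 exceeded that of Tab3 by 0.77, and that of Mapk8 exceeded that of Mapk9 by 0.44. Ticam1 changed less than Ticam2, with a difference of -0.86. Every R848 array lay on the same side of every saline array of its genotype in each pair. The pairs differ in noise: the within-group SD of the difference was 0.091 for Slc15a3 and Slc15a4 and 0.362 for Ticam1 and Ticam2.

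**Figure D4:**
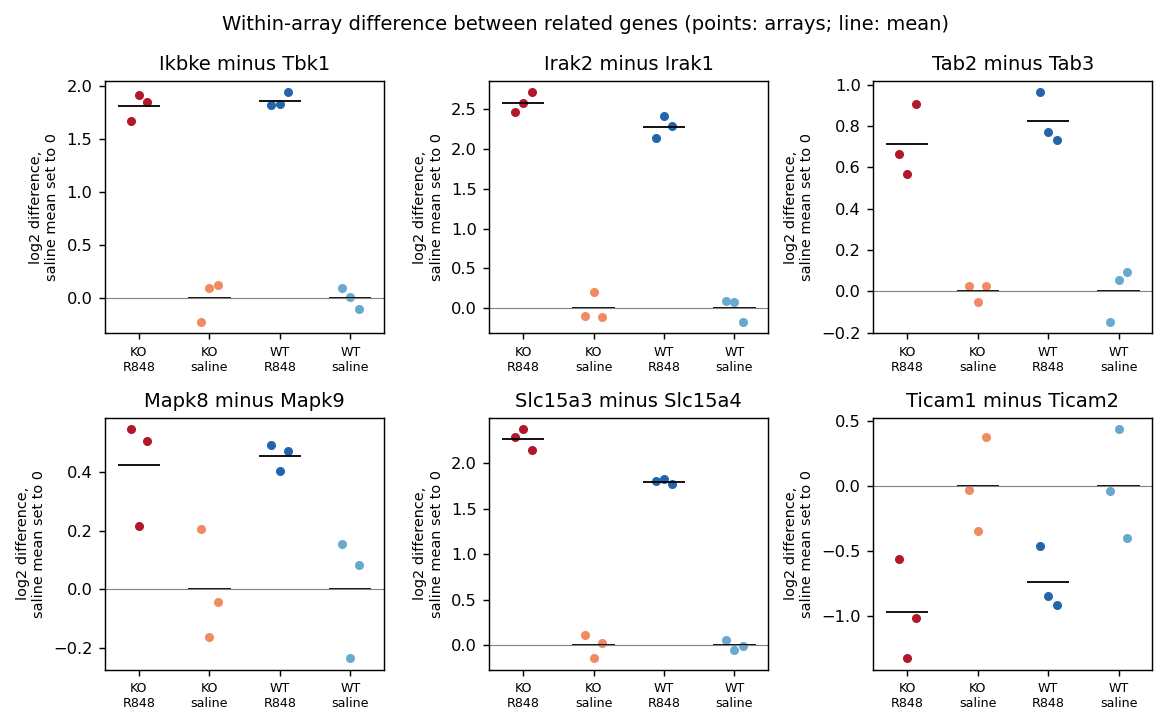
Each panel gives, for a pair of related genes, the log2 value of the first minus that of the second in each array, with the saline mean of the same genotype set to 0. Points are arrays, lines are means of 3, KO is knockout and WT wild type. Irak2 minus Irak1 shifted by 2.59 in knockout and 2.28 in wild type, and Ticam1 minus Ticam2 shifted down, by -0.97 and -0.74.

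Between genotypes no member was called. Knockout against wild type gave 0 of 33 members past limma's threshold with R848, where 0.135% of all tested genes passed, and 0 in saline, where 0.334% passed. Averaged over treatments the count was again 0 (limma), where 1.78% of all tested genes passed. At shares this low, 0 of 33 does not set the members apart from other genes. At an unadjusted p under 0.05 there were 2, 2 and 3 members, where 8.74%, 12.6% and 16.1% of all tested genes reached it. No member differed by more than 0.23 with R848 or 0.27 in saline. The 95% intervals of all 33 lay between -0.49 and 0.45 with R848 and between -0.44 and 0.50 in saline. The number of arrays, 3 a group, limits how narrow these intervals can be.

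The largest averaged differences are given by array. In saline, 4 of 33 members lay apart as higher in knockout and 2 as lower, where 6.65% and 9.43% of all tested genes did. With R848 the counts were 3 and 1, where 5.35% and 8.46% of all tested genes lay apart. Separations of arrays named below are therefore descriptions and do not set these members apart from other genes. Ticam2 was 0.19 higher in knockout (limma adjusted p = 0.276), and its arrays, printed above, were apart with R848 and overlapped in saline. Slc15a4 differed by 0.15 (0.341). It read 8.75, 8.53 and 8.81 in knockout and 8.75, 8.68 and 8.59 in wild-type cells with R848. In saline it read 9.35, 9.10 and 8.96 in knockout and 8.76, 8.91 and 8.92 in wild-type cells, so that the groups were apart in saline and overlapped with R848. Tirap differed by 0.13 (0.174), at 7.83, 7.93 and 7.92 in knockout and 7.83, 7.78 and 7.75 in wild-type cells with R848. In saline it read 7.18, 7.26 and 7.29 in knockout and 7.10, 7.06 and 7.09 in wild-type cells, so that the groups touched with R848 and were apart in saline.

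On the lower side, Tab1 differed by -0.15 (limma adjusted p = 0.434), at 6.42, 5.98 and 6.33 in knockout and 6.39, 6.55 and 6.47 in wild-type cells with R848. In saline it read 6.95, 6.77 and 7.06 in knockout and 6.90, 7.21 and 6.87 in wild-type cells, and the groups overlapped in both treatments. Map2k3 differed by -0.14 (0.309), at 7.80, 7.61 and 7.75 in knockout and 7.93, 7.84 and 7.67 in wild-type cells with R848. In saline it read 7.73, 7.59 and 7.76 in knockout and 7.85, 8.02 and 7.77 in wild-type cells, with no overlap there. Tollip differed by -0.11 (0.319), at 7.02, 6.92 and 6.96 in knockout and 7.13, 7.16 and 7.11 in wild-type cells with R848, which did not overlap. In saline it read 6.71, 6.88 and 6.70 in knockout and 6.80, 6.75 and 6.90 in wild-type cells.

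**Figure D5:**
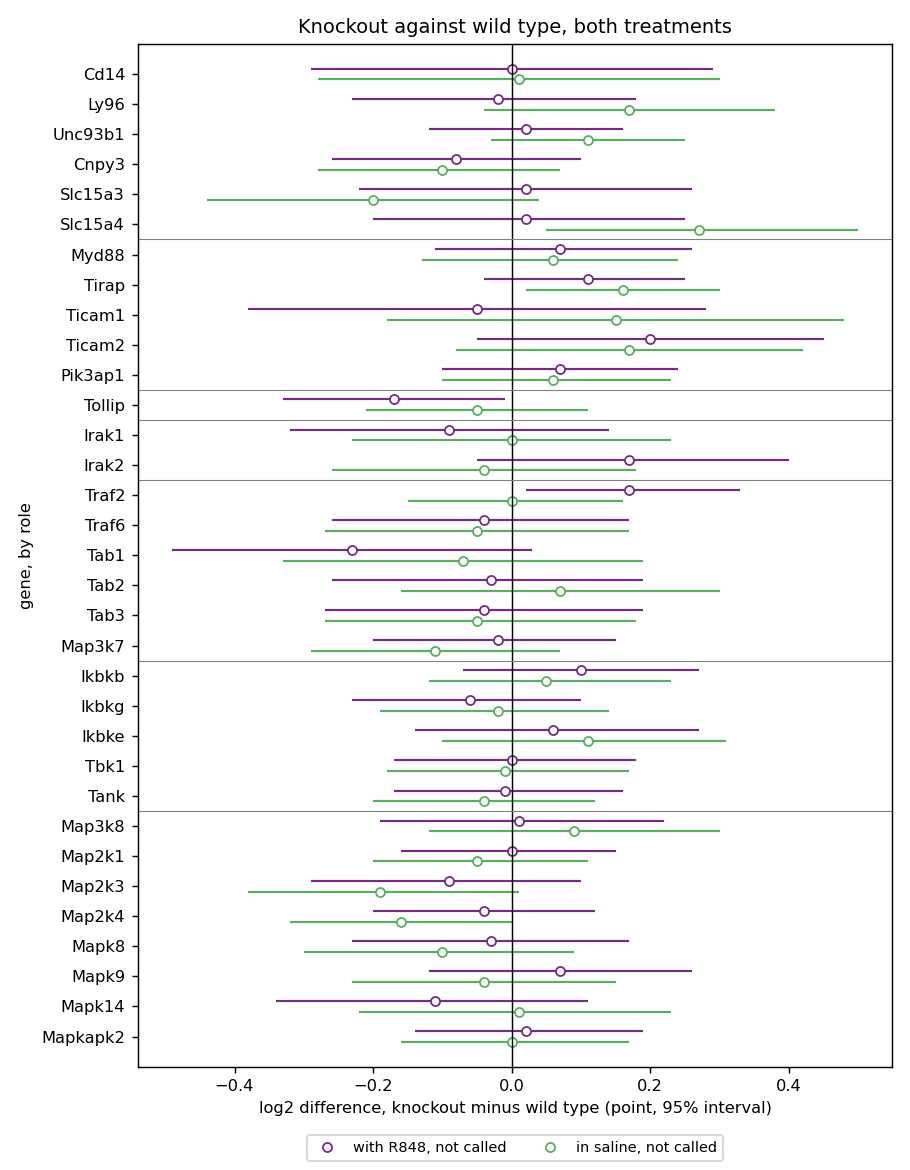
Points give the log2 difference between knockout and wild type (knockout minus wild type) of the 33 tested members with R848 (purple) and in saline (green), with 95% intervals, and open points did not pass limma's adjusted p of 0.05. All points are open and lie between -0.23 and 0.27.

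The interaction, the R848 change in knockout minus that in wild type, asks whether the genotypes answered R848 differently. It passed limma's threshold for 0 of 33 members, where 0.0142% of all tested genes passed, and 0 had an unadjusted p under 0.05, which 4.93% of all tested genes reached. The smallest p-values belonged to members whose array values are given above, Slc15a4 at -0.25 ± 0.146 (SE), Traf2 at 0.17 ± 0.102 and Irak2 at 0.21 ± 0.148, with limma adjusted p of 0.986, 0.987 and 0.996. The median over the members was 0.01. The 95% intervals lay between -0.67, for Ticam1, and 0.56, for Slc15a3, wider than those of the genotype differences above.

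Other genes of the pathway were taken from a list of 56 receptors and signal transducers, of which 50 were tested. In knockout 13 rose and 20 fell with R848, and in wild type 17 rose and 16 fell, where 15.6% and 14.6% of all tested genes rose and 26.0% and 23.6% fell. The list's median change was -0.03 in knockout and -0.04 in wild type, against -0.03 and -0.02 over all tested genes. Tlr7, the receptor of R848, fell by 0.45 in knockout (limma adjusted p = 0.00046) and by 0.34 in wild type (0.00428). The largest changes in wild type were rises of Tnip1, a binding partner of the ubiquitin editor A20, by 2.90 in knockout and 3.17 in wild type, of Tlr2 by 3.11 and 3.12, and of Traf1, an adaptor of tumour necrosis factor receptors, by 3.27 and 3.11. Mknk2, a kinase below ERK and p38, fell, at -2.53 in knockout and -2.37 in wild type. Irak3, the inhibitory member of the IRAK family, rose by 1.65 and 1.84. Tied next were Tnip3, with rises of 2.08 and 1.71, and Tlr13, with falls, at -1.74 and -1.71. Between genotypes, Tnip3 was lower in knockout in saline, at -0.38 (limma adjusted p = 0.0477), and averaged over treatments Ly86 and Tlr3 were higher by 0.38 (0.0267) and 0.39 (0.0355).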

How the data were processed

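Total RNA of 12 macrophage samples was measured on Mouse Gene 2.1 ST arrays, 3 per group. The deposited table holds log2 intensities made with Affymetrix Expression Console and RMA, per the submitters' processing notes; the sources used here give no versions or settings. RMA subtracts background, quantile-normalizes the arrays and summarizes probes, which evens out shifts shared by most genes. Values ran from 2.15 to 12.85, with array medians of 4.49 to 4.57. Arrays of the same group correlated at 0.9909 to 0.9964 and arrays of different groups at 0.9159 to 0.9945, across genes.

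Of 34472 rows, those with 1 platform symbol name 22180 genes, and for several rows of a gene the one with the highest mean over the 12 arrays was kept. The filter asked for a value above the 0.4 quantile of the array on at least 3 arrays. Groups were taken from the sample titles. Contrasts of group means were fitted in limma 3.58.1 (R 4.3.3) over all 12 arrays, with Benjamini-Hochberg adjustment over 14079 genes. Pairs of relatives were tested by exact permutation in Python 3.11.15. Simulated data held 200 changed genes among 14079, with noise drawn independently for each gene and array. There a change of 0.5 was recovered for 86.5% of genes in the R848 contrast in knockout and 87.5% in the genotype contrast with R848. In the interaction it was recovered for 22.5%, and a change of 1 was recovered for 99%, 99.5% and 98%. The measured genotype contrast with R848 called only 19 genes and the measured interaction only 2, which makes their adjusted thresholds stricter than in the simulation. The measured R848 contrast in knockout called 5858 genes, which makes its threshold more lenient. These shares therefore do not give the recovery of a change of 0.5 or 1 in the measured arrays, for any of these contrasts.

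The members, the marker lists, the other pathway list and the tests were chosen with earlier results of these data known. Array values are printed for members changed at least 2-fold with R848, for the 3 largest averaged genotype differences in each direction and for the 3 smallest interaction p-values. Further members were given array values or means where they help a description. Of the other pathway list, the 6 largest changes in wild type and Tlr7 are named; the genes named there for a genotype difference were chosen after their values were seen. Replicate numbers were checked as pairs by the correlation of same-numbered residuals, which was 0.27, 0.17 and 0.28 between knockout R848 and knockout saline arrays. Between wild-type R848 and wild-type saline arrays it was 0.25, -0.06 and 0.23. Between knockout and wild-type arrays it was 0.12, -0.12 and 0.14 in saline and 0.33, 0 and 0.1 with R848. An alternative fit took the replicate number as a block over all 12 arrays. Each block joined the same-numbered arrays of all 4 groups, wild type and knockout together. Promoter windows came from RefSeq on GRCm38.p6. Alternatives were another spread model, no filter, a stricter filter (0.6 quantile), median centring, cyclic loess, array weights, only the arrays compared, the replicate block, a minimum change of 1, and leaving out each array.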

Additional observations from a re-analysis of the deposited data

How the results depend on the processing

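All calls between genotypes and in the interaction stayed at 0 members under every alternative run. Of the other counts, those asking for a change of at least 2-fold gave 8 higher and 0 lower members in knockout, in wild type and averaged over genotypes. Centring on the median of the tested genes left 3 lower members in wild type, against 5 as deposited. Leaving out 1 array at a time gave 17 to 20 higher and 5 to 6 lower members in knockout, and 20 higher and 3 to 5 lower in wild type, with 3 only without wild-type R848 replicate 3. Averaged over genotypes it gave 20 to 21 higher and 6 lower. With the replicate block 20 members were higher and 6 lower in knockout, and 20 and 5 in wild type; the added knockout member was Mapk9, at -0.22, and the block changed no other call of a member. Taken by genotype, the difference between Irak2 and Irak1 was 2.59 in knockout and 2.28 in wild type, and that between Slc15a3 and Slc15a4 was 2.26 and 1.80; these use 3 arrays against 3 and have no test. Over all settings, 32 single values of members lost and 16 gained a call, none changed direction while called, and the cause was not tested. Each member has 1 row, so testing all 14769 rows separately changed no call and no estimate of a member, only adjusted p-values. Signal near the dim limit restricts what can be said of Sarm1, Sigirr and Map2k6.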
